A study of Mus musculus with 6 samples.

Results

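The neuroectoderm, the embryonic layer that gives rise to the brain and spinal cord, was followed through 9 of its genes in mouse embryonic stem cells kept in BMP4. The members were all probe sets with the single gene symbol Sox1, Pax6, Nes, Zic1, Six3, Hesx1, Neurog2, Hes5 or Fabp7 on an Affymetrix mouse array, 20 probe sets for 9 genes out of 45037 probe sets for 18193 genes. The cells were of the line E14Tg2a, and all groups were kept without serum in N2B27, to which 1000 U/ml of LIF and 20 ng/ml of BMP4 were added. Control cells received nothing more, and no vehicle was stated for them. A second group received activin at 10 ng/ml for 2 h, and the other SB431542 at 5 µM for 24 h. Activin activates the receptors and Smad2/3 proteins that Nodal also uses, and SB431542 blocks the kinase of those receptors. Each group had 2 arrays, which the labels do not tie to separate cultures, so p-values measure the spread between arrays and may cover technical spread alone. All 3 groups carried BMP4, and no group without BMP4 or differentiated to neural cells was measured.

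Neuroectoderm arises where pluripotent cells receive neither BMP nor Nodal signals, and blocking either branch is a common way to make neural progenitors in culture. In serum-free ES cell medium BMP4 works beside LIF, through Id proteins that hold back basic helix-loop-helix factors of the neural lineage. The comparison of SB431542 with control therefore asked whether closing the Nodal/Activin branch starts neural genes while the BMP branch is kept active.

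The state of both branches was visible in the same arrays. Lefty2, a Nodal antagonist that Nodal itself induces, had a mean log2 intensity of 8.95 ± 0.01 in the controls (SD, n = 2), which was 10.34 ± 0.07 after activin and, below background, 3.90 ± 0.14 after SB431542. Id3, a direct BMP target, was at 10.99 ± 0.00, 9.94 ± 0.06 and 11.46 ± 0.05 in the same order. All 18 pluripotency genes examined, Pou5f1, Nanog and Sox2 among them, lay above background, and their summed intensity ran from 68969 to 75664 over the 6 arrays, with both SB431542 arrays lowest. With limma's variance prior following intensity, 2.23% of all genes were lower after SB431542 and 4.25% higher. Of the 18, 7 were lower and 1, Klf4, was higher. Pou5f1 was among the lower at −0.43 (adjusted p = 1.51e-04). With every array shifted to 1 median 0 of the 18 passed, and without either SB431542 array 2 were lower and 2 higher. The median intensity of an array was 46 and 37 in control, 38 and 49 after activin, and 43 and 41 after SB431542.

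The sequences around the start sites of the members that the results turn on are shown with a small set of motifs marked in capitals. They come from RefSeq on GRCm38.p6, 250 bases before to 50 after each start, and 10 such windows matched all 9 genes. Motifs were searched on both strands, no 2 marked matches overlapped, and 5 motifs were marked. They were CAGAC (a Smad2/3/4 box), GGCGCC (a GC-rich Smad1/5 box), TGTGGATT (Foxh1, the Nodal-responsive forkhead partner of Smad2), GTGGGAA (Rbpj, the DNA-binding factor of Notch signalling) and ATGCAAAT (the octamer). Pax6 is shown with both of its listed start sites because 1 of its probe sets held the members' only call. Hesx1 and Nes are shown because they lay next to it in size among the better measured members, Six3 because its highest values were in the activin arrays, and Hes5 because it is the members' Notch effector.
Pax6 upstream start, chr2:105668646-105668945, strand +: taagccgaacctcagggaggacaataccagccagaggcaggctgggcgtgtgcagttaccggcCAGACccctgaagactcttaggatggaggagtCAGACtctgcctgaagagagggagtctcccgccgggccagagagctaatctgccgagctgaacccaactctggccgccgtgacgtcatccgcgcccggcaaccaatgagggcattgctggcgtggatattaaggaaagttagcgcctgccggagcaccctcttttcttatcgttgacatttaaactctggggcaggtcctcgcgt
Pax6 downstream start, chr2:105682213-105682512, strand +: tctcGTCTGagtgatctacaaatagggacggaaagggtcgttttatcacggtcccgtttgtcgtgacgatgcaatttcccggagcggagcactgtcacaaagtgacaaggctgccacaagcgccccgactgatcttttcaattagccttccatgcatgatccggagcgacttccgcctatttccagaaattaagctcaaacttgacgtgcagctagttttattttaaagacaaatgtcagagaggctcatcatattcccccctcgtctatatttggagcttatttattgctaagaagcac
Hesx1, chr14:27000112-27000411, strand +: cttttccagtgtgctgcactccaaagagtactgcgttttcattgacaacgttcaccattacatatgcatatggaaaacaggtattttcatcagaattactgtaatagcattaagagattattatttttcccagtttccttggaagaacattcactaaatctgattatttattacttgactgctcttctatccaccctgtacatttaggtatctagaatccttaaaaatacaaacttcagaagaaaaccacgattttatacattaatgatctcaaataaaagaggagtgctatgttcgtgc
Nes, chr3:87970843-87971142, strand +: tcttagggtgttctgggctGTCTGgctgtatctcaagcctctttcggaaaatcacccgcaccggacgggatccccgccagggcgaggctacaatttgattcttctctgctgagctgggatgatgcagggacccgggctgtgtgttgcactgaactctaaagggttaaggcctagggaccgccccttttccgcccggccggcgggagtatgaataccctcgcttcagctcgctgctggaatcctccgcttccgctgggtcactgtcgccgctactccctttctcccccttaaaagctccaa
Six3, chr17:85620584-85620883, strand +: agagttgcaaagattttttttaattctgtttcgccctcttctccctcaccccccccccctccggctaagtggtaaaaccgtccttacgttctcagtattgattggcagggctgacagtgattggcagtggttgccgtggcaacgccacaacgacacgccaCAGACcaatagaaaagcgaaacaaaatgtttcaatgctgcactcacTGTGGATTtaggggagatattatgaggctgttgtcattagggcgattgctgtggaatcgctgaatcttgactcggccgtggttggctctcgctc
Hes5, chr4:154960673-154960972, strand +: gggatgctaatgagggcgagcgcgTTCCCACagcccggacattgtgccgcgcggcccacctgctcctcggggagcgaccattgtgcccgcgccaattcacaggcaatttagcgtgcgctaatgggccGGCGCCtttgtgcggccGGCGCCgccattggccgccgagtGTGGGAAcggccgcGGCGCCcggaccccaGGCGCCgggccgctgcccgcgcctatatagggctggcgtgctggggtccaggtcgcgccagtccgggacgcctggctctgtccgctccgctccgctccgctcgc

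CAGAC was present in 49.6% of all 32851 windows of this length, a share against which its 2 matches at the upstream Pax6 start and 1 each at the downstream Pax6 start, Nes and Six3 should be read. The Six3 window held TGTGGATT, first base 44 bases before the start, a string found in 0.855% of all windows. The Hes5 window held GTGGGAA 2 times, first bases 226 and 83 bases before the start, where 6.38% of windows hold it at all, and GGCGCC 4 times, where 11.9% do. The Hesx1 window, with 33.7% G and C against a median of 52.7% over all windows, held none of the 5 marked strings. Another string, the E-box CANNTG, was searched but not marked, and 72.3% of windows held it. Among the windows shown it matched 2 times at Hesx1 and 1 time each at the downstream Pax6 start and Hes5. The octamer, in 1.74% of windows, matched only the Sox1 window among the members. These are descriptions of letters in a window, and no binding was measured.

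Most of the neuroectoderm members were dim in all 3 groups. Background was taken from 27 probe sets for Bacillus transcripts that were not spiked in, with log2 intensities from 3.00 to 5.09 and a median of 3.52, and 54.1% of all probe sets had a mean above the highest of these. Of the 20 members, 7 exceeded it on all 6 arrays, 10 on none, and 3 on some. The 7 were 3 of 5 probe sets for Pax6, 2 of 3 for Nes, 1 of 3 for Six3 and the single one for Hesx1. The members read at or below background on every array included every probe set for Zic1, Neurog2 and Fabp7. In such bulk samples, fewer expressing cells and less RNA per cell cannot be told apart.

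**Figure D1:**
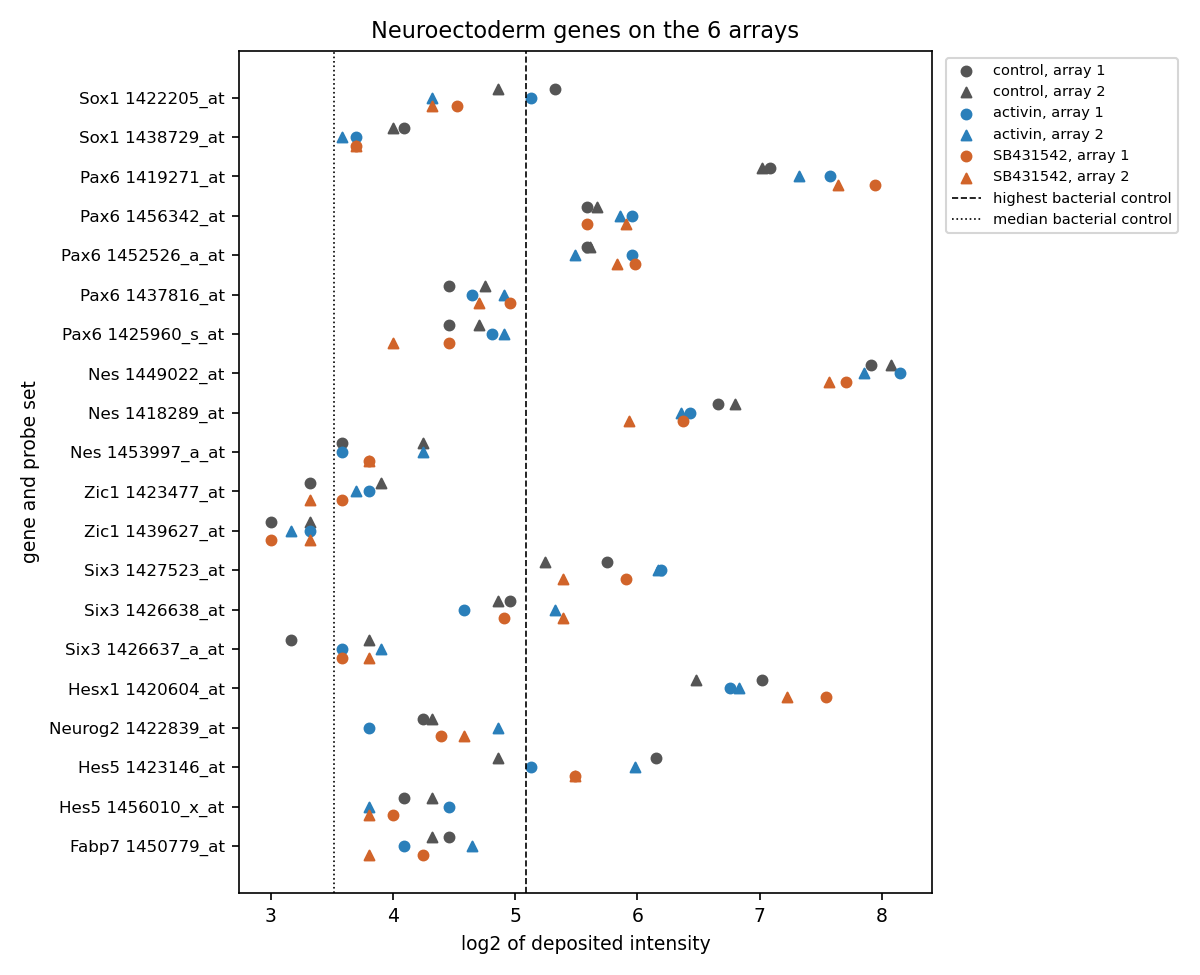
Log2 of the deposited intensity (x axis) of each of the 20 probe sets (y axis) on the 2 control, 2 activin and 2 SB431542 arrays, with the highest (dashed, 5.09) and median (dotted, 3.52) value of the unspiked bacterial probe sets. All values of Zic1, Neurog2 and Fabp7 lie left of the dashed line, and the SB431542 values of Pax6 1419271_at and Hesx1 lie right of their control values.

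After SB431542 no neuroectoderm gene rose by limma at its default settings, and 1 of the 20 probe sets, for Pax6, rose when the prior variance was allowed to follow intensity with robust estimation (the intensity trend). The default test called 0 of 20 members at an adjusted p of 0.05, with 4 at an unadjusted p under 0.05 and a smallest adjusted p of 0.237, against 0.0155% of all probe sets called. The intensity trend called 1 of 20 members, with 4 again at an unadjusted p under 0.05, against 4.98% of all probe sets called. Of all 45037 probe sets, 5840 had an unadjusted p under 0.05 by default and 7462 with the intensity trend. Between the groups 4 members had both SB431542 arrays above both control arrays, beside 20.6% of all probe sets, and 6 had both below, beside 22.1%. Over the 9 genes, each by its brightest probe set, the median log2 difference was −0.01, where all genes had 0.00, and single members ran from −0.67 to 0.74.

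**Figure D2:**
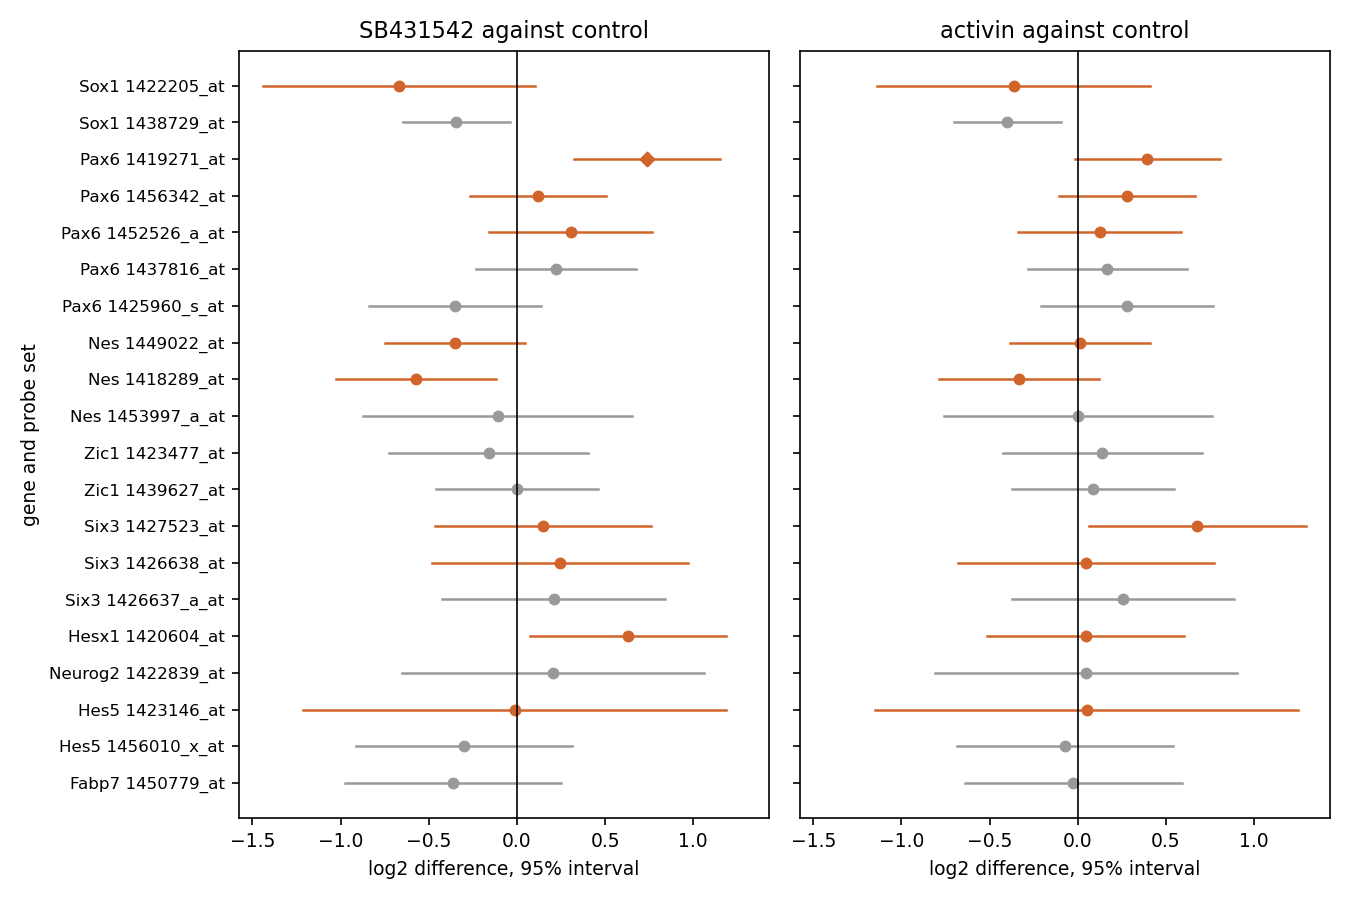
Log2 difference from control with its 95% interval from limma (x axis) for each probe set (y axis), after SB431542 (left) and after activin (right). Orange marks probe sets whose mean was above background in at least 1 group, grey the others, and a diamond marks the 1 call with the intensity trend, Pax6 1419271_at after SB431542 at 0.74.

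Pax6 encodes a paired-domain and homeodomain factor of forebrain, eye and spinal cord progenitors. Its brightest probe set, 1419271_at, read 136 and 130 in control, 191 and 160 after activin, and 246 and 200 after SB431542. The 3 groups did not overlap, and the order was control, activin, SB431542. On the log2 scale it rose by 0.74 after SB431542 (SE 0.17, 95% interval 0.33 to 1.15), 1.67-fold, with the intensity trend (limma adjusted p = 0.0083) but not by the default test (limma adjusted p = 0.237). The call rested on the first SB431542 array, since without it the difference was 0.59 and the intensity trend gave an adjusted p of 0.295. It was also lost with every array shifted to 1 median (adjusted p = 0.0633).

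None of the other 4 probe sets for Pax6 was called. Probe set 1452526_a_at, whose suffix marks probes that match several transcripts of 1 gene, read 48 and 49 in control, 62 and 45 after activin, and 63 and 57 after SB431542. Its SB431542 values lay above both controls, but the log2 difference of 0.31 did not pass (SE 0.18, limma adjusted p = 0.534 by default and 0.703 with the intensity trend). Probe set 1456342_at read 48 and 51 in control, 62 and 58 after activin, and 48 and 60 after SB431542, so the SB431542 values spanned the controls. Of the 2 probe sets below background, 1437816_at had a log2 difference of 0.22 and 1425960_s_at one of −0.35. The 5 probe sets for Pax6 thus ran from −0.35 to 0.74, and only the brightest was called.

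Hesx1, a homeobox repressor of the anterior neural plate and pituitary that is also transcribed in pluripotent cells, had 1 probe set. It read 130 and 89 in control, 108 and 114 after activin, and 186 and 149 after SB431542. Both SB431542 arrays were above the other 4, while the activin arrays lay between the 2 controls. The log2 difference of 0.63 from control (SE 0.22, 95% interval 0.07 to 1.19) did not pass by default (limma adjusted p = 0.350) or with the intensity trend (limma adjusted p = 0.0848). The control arrays set how large it looked: without the first control it was 0.90 (intensity trend adjusted p = 0.0165), and without the second it was 0.36 (adjusted p = 0.490). It also passed with replicate numbers as a block and the activin numbers exchanged (adjusted p = 0.0330), an alternative added after seeing the data.

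Nes, the intermediate filament nestin of neural and some other progenitors, went the other way. Its brightest probe set, 1449022_at, read 240 and 269 in control, 284 and 231 after activin, and 209 and 190 after SB431542. A second, 1418289_at, read 101 and 111, then 86 and 82, then 83 and 61. In both probe sets the SB431542 arrays were below the controls, and in the second the activin arrays were below them too. The log2 differences after SB431542 were −0.35 (SE 0.16, 95% interval −0.75 to 0.05, limma adjusted p = 0.428) and −0.57 (SE 0.18, 95% interval −1.03 to −0.12, limma adjusted p = 0.317). With the intensity trend they did not pass either, with adjusted p = 0.244 and 0.220. The third probe set, 1453997_a_at, was below background on every array.

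**Figure D3:**
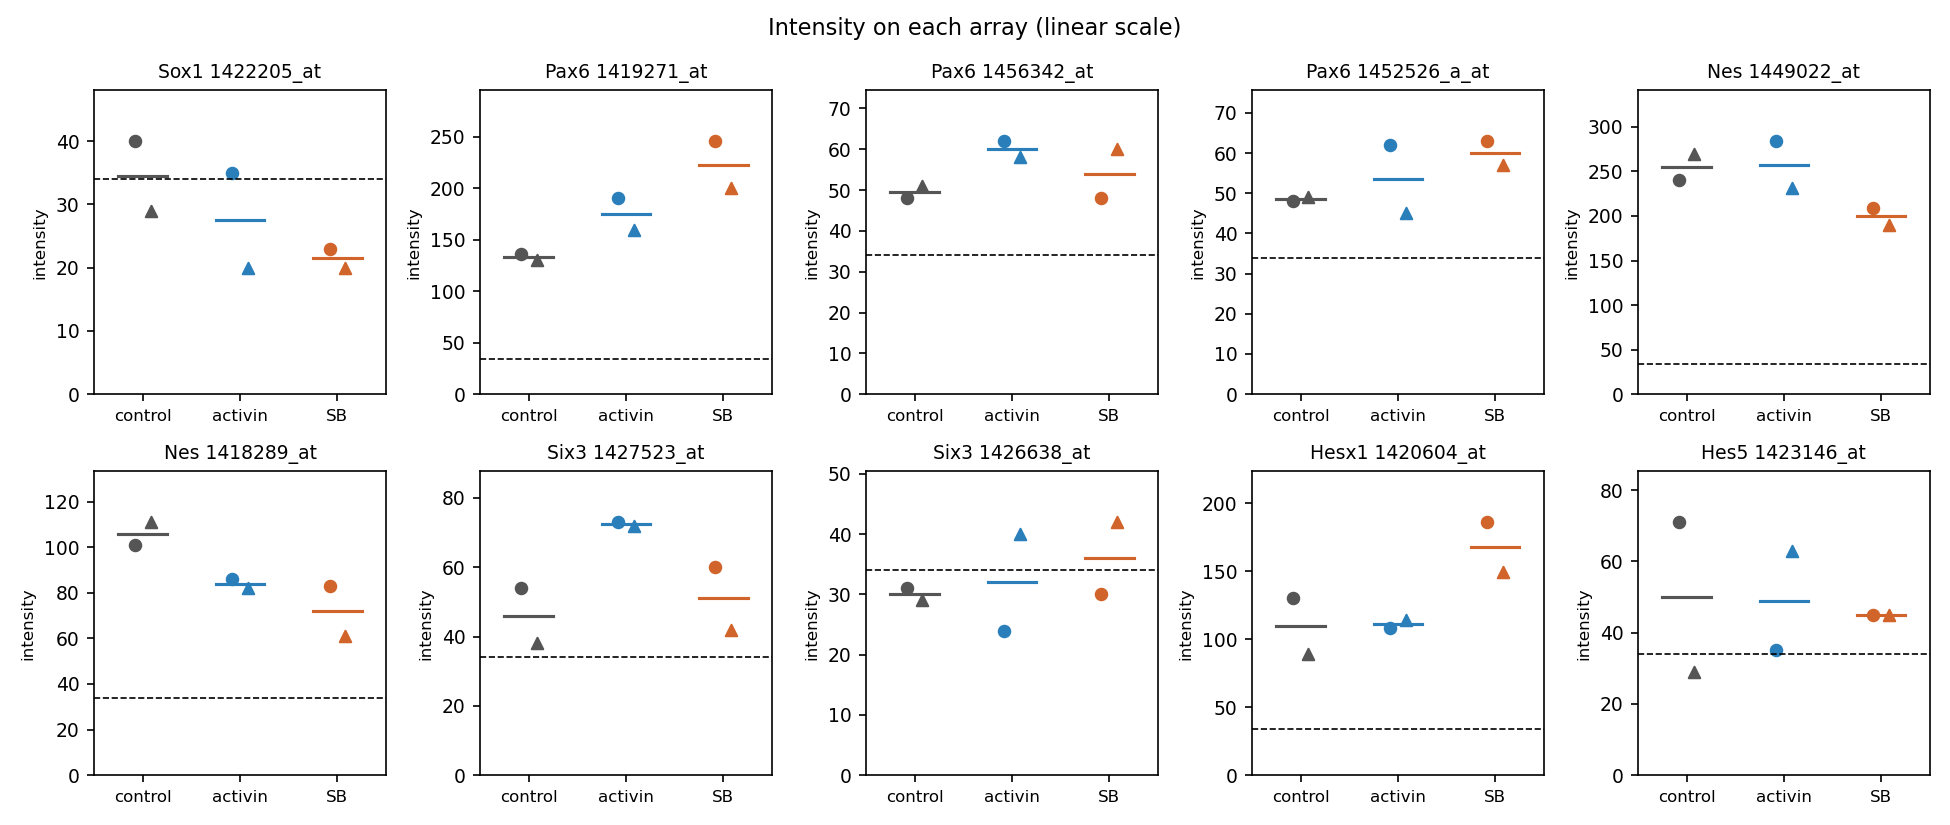
Deposited intensity on a linear axis for the 10 probe sets above background on at least 1 array, with the first array of a group as a circle, the second as a triangle, the arithmetic mean as a bar and the highest bacterial value (34) dashed. Pax6 1419271_at and Hesx1 are highest on the SB431542 arrays, and both Nes probe sets have their lowest mean there. The 2 control values of Hes5 (71 and 29) span all its other values.

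Sox1, the SoxB1 factor whose onset is widely used to mark the first neuroectoderm, stood at the edge of detection. Probe set 1422205_at read 40 and 29 in control, 35 and 20 after activin, and 23 and 20 after SB431542, where the highest bacterial value was 34. Both SB431542 arrays were below both controls and at background. The log2 difference was −0.67 (SE 0.31, 95% interval −1.44 to 0.10, limma adjusted p = 0.436), so the interval reached no further than 0.10 on the side of a rise, although a rise that stays below background would not be visible. The second probe set, 1438729_at, read 17 and 16 in control and 13 on both SB431542 arrays, below background throughout.

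Six3, a homeobox factor of the eye field and forebrain, had its highest values after activin. Probe set 1427523_at read 54 and 38 in control, 73 and 72 after activin, and 60 and 42 after SB431542. The activin arrays lay above the other 4, and the SB431542 arrays overlapped the controls. The log2 difference of 0.68 after activin (SE 0.25, 95% interval 0.06 to 1.29) did not pass (limma adjusted p = 0.793, and 0.653 with the intensity trend), and after SB431542 the difference was 0.15 (95% interval −0.47 to 0.76). The probe sets 1426638_at and 1426637_a_at were at 0.05 and 0.26 after activin, the first near background and the second below it.

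Hes5, a basic helix-loop-helix repressor that Notch induces in neural progenitors, was set by the spread between replicates. Probe set 1423146_at read 71 and 29 in control, 35 and 63 after activin, and 45 on both SB431542 arrays. The control pair alone spanned every other value, and the log2 difference after SB431542 was −0.01 with a 95% interval from −1.21 to 1.19. A change of up to about that size in either direction could not have been seen. The second probe set, 1456010_x_at, ran from 14 to 22 and was below background.

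Neurog2, a proneural factor of cortical and spinal progenitors, read 19 and 20 in control, 14 and 29 after activin, and 21 and 24 after SB431542. Fabp7, the fatty acid binding protein of radial glia, read 22 and 20, then 17 and 25, then 19 and 14. Zic1, a zinc finger factor of the dorsal neural tube, ran from 10 to 15 in its brighter probe set and from 8 to 10 in the other. None of these 4 probe sets left background on any array, so their log2 differences after SB431542, from −0.36 for Fabp7 to 0.20 for Neurog2, carry no measured direction.

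Activin for 2 h asked whether added ligand moves the same genes. It called 0 of 20 members by default (smallest limma adjusted p = 0.793, 2 at an unadjusted p under 0.05), where 0.00% of all probe sets passed. With the intensity trend it again called 0 (smallest adjusted p = 0.639, 2 at an unadjusted p under 0.05), where 0.215% passed. Of all 45037 probe sets, 2797 had an unadjusted p under 0.05 by default and 3217 with the intensity trend. Both activin arrays were above both controls in 4 members, beside 14.7% of all probe sets, and below in 2, beside 14.5%. The 4 were 1427523_at for Six3 and 1419271_at, 1456342_at and 1425960_s_at for Pax6, and the 2 were 1438729_at for Sox1 and 1418289_at for Nes. Pax6 1419271_at was at 0.39 after activin (SE 0.17), on the same side as after SB431542, and these comparisons share their 2 control arrays.

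The direct comparison of activin with SB431542 uses no control array, and its groups also differ in duration, 2 h against 24 h. It called 0 of 20 members by default (smallest limma adjusted p = 0.467, 2 at an unadjusted p under 0.05), beside 0.0200% of all probe sets, and 0 with the intensity trend (smallest adjusted p = 0.196, 2 at an unadjusted p under 0.05), beside 2.27%. Of all 45037 probe sets, 4071 had an unadjusted p under 0.05 by default and 5067 with the intensity trend. Hesx1 was lower after activin by 0.59 on the log2 scale, a value of −0.59 (SE 0.22, intensity trend adjusted p = 0.196). Pax6 1419271_at was at −0.34 (SE 0.17) and Nes 1449022_at at 0.36 (SE 0.16), and neither passed. Both activin arrays were above both SB431542 arrays in 4 members, beside 18.7% of all probe sets, and below in 2, beside 18.2%. The 2 were Pax6 1419271_at and Hesx1. Over the 9 genes the median log2 difference was 0.30, where all genes had 0.00, with 6 genes higher after activin and 3 lower. Without the second activin array that median was 0.06.

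A wider list of 42 genes of the neural plate, neural progenitors and early neurons, of which 38 were measured, held genes called in both directions. After SB431542 its median log2 difference was −0.14, with 13 above control and 25 below. By default 0 were called, and with the intensity trend 2 rose and 3 fell, where 4.25% of all genes rose and 2.23% fell. Irx3, an Iroquois factor of the neural plate, rose by 1.09 (SE 0.29, intensity trend adjusted p = 0.0127), from 80 and 48 in control to 127 and 137, and Sox21, a SoxB2 factor of progenitors, rose by 0.61 (adjusted p = 0.0214). Both calls were lost without either SB431542 array and without the second control (Irx3 at most 0.195 and Sox21 at most 0.367). Cdh2, the neural cadherin, fell by 0.75 (adjusted p = 8.83e-04), Vim, an intermediate filament protein, by 0.58 (adjusted p = 4.84e-06) and Zic5, a zinc finger factor of neural folds, by 0.36 (adjusted p = 0.0483). The Zic5 call was lost without the first control or either SB431542 array (adjusted p at most 0.358), and with every array shifted to 1 median the list had 1 higher and 1 lower. The 3 probe sets for Vim disagreed in sign. A second probe set for Cdh2, at −0.56, did not pass (intensity trend adjusted p = 0.117). The other probe sets for Zic5, at −0.47 and −0.64, did not pass either (intensity trend adjusted p = 0.0743 and 0.218).

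Sox2, the SoxB1 factor shared by pluripotent and neural cells, had a log2 difference of −0.05 (SE 0.12, limma adjusted p = 0.897). Of the genes that did not pass, the 4 named next had the smallest unadjusted p by default. They were the proneural factor Neurod1 at −0.66 (intensity trend adjusted p = 0.177), the POU factor Pou3f2 at −0.72 (adjusted p = 0.0582), the SoxB1 factor Sox3 at −0.61 (adjusted p = 0.0726) and Otx2, of the forebrain and the primed epiblast, at 0.43 (adjusted p = 0.155). Ordered by the intensity trend instead, Pou3f1 at 0.32 (adjusted p = 0.135), Msi1 at 0.67 (adjusted p = 0.161) and Zic2 at −0.43 (adjusted p = 0.176) also came before Neurod1. Among 12 neuron markers 1 fell with the intensity trend and 0 rose, where 2.23% of all genes fell and 4.25% rose. It was Nefl, the light neurofilament chain, which read 1116 and 1146 in control, 1197 and 1127 after activin, and 415 and 440 after SB431542. Its log2 difference was −1.40 (SE 0.12, limma adjusted p = 0.103, and 4.94e-12 with the intensity trend), and a second probe set gave −1.29. Among 9 glia markers measured, 0 were called.

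The Notch pathway, whose effectors Hes1 and Hes5 keep neural progenitors from differentiating, was measured through 22 other genes. After SB431542 0 were called by default, and with the intensity trend 4 fell and 1 rose. Over all genes 2.23% fell and 4.25% rose with that trend. The receptor Notch4 fell by 1.35 (SE 0.13, adjusted p = 4.58e-04), from 105 and 109 in control to 43 and 41, while its 2 dimmer probe sets were below background. The receptor Notch3 fell by 0.64 (adjusted p = 5.48e-04) and the ligand Jag1 by 0.56 (adjusted p = 7.94e-04). Second probe sets for both also passed, at −0.78 for Notch3 (adjusted p = 0.0415) and −0.99 for Jag1 (adjusted p = 2.46e-04), while another for Jag1, at −0.15, did not. The second Notch3 call was lost without any of 3 arrays (adjusted p at most 0.436). Hes1 fell by 0.58 (adjusted p = 0.0308), a call lost without the first control array (adjusted p = 0.371) and without the first SB431542 array. Lfng, a glycosyltransferase that modifies Notch, rose by 0.65 (adjusted p = 0.0380), and the call was lost without any 1 of the control and SB431542 arrays (adjusted p at most 0.539). The median of the 22 was 0.02. With every array shifted to 1 median, 0 of the 22 rose and 1 fell.

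BMP targets and genes of the non-neural ectoderm, the fate that BMP favours over the neural one, gave larger counts than the neuroectoderm members. Both lists are longer, and a larger share of their genes lay above background. All 17 BMP targets and 15 of 19 non-neural genes had a group mean above background, against 6 of 9 members. This limits the comparison of counts. Of 17 BMP targets 9 rose and 1 fell with the intensity trend, with a median of 0.70. Of 19 non-neural ectoderm genes measured 8 rose and 0 fell, with a median of 0.41. In sign, 13 BMP targets and 16 non-neural genes lay above control, and 4 and 3 below. Over all genes 4.25% rose and 2.23% fell. By default 0 of either list were called. The lists share Dlx3, Dlx5, Gata2 and Gata3, and the rise of BMP targets in these data was known when the list was chosen, so it is not independent evidence. Tfap2a, a factor of surface ectoderm and neural crest, rose by 1.03 (adjusted p = 9.53e-05) and Tfap2c by 0.79 (adjusted p = 5.00e-07). Krt8 and Krt18, keratins of simple epithelia, rose by 0.43 (adjusted p = 5.29e-04) and 0.46 (adjusted p = 1.41e-04). Not every non-neural gene went that way. Epcam read 4147 and 3689 in control and 3448 and 3621 after SB431542. The dim Krt14 read 40 and 21, then 18 and 18, and the dim Tfap2b 17 and 13, then 13 and 13. Over all alternatives run with the intensity trend, the count higher stayed between 7 and 10 for BMP targets and between 6 and 9 for the non-neural list.

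**Figure D4:**
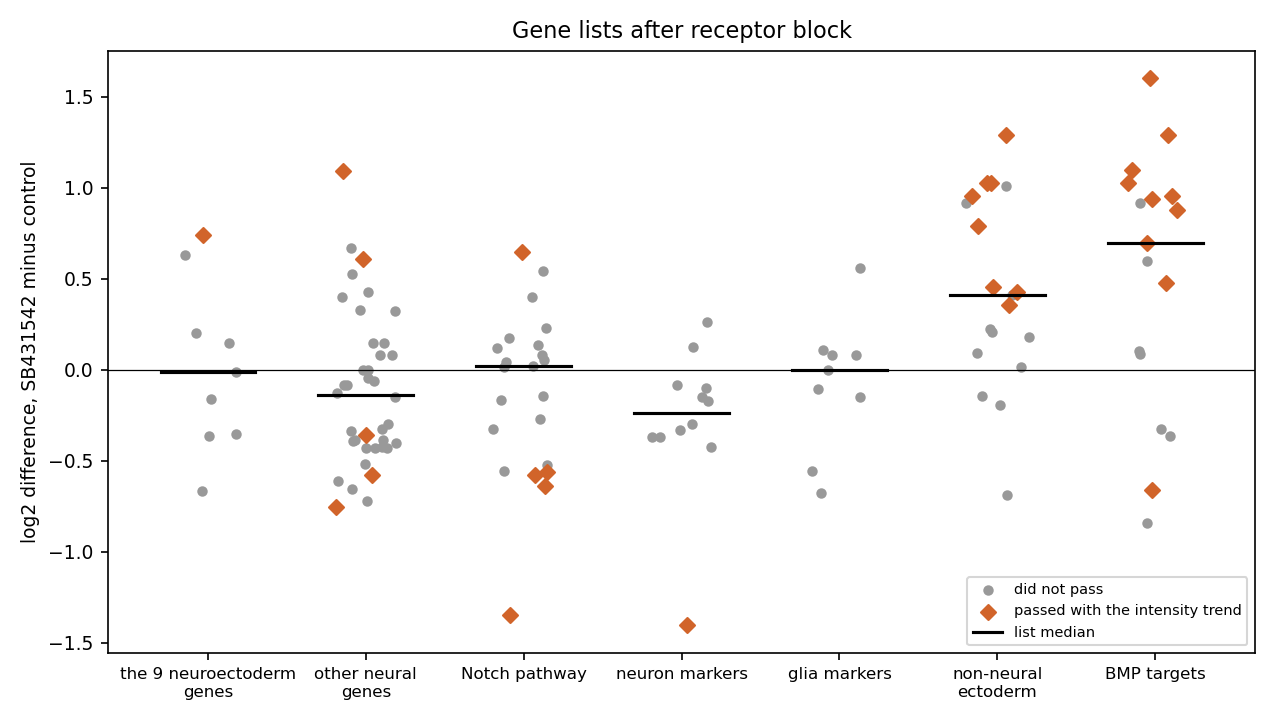
Log2 difference of SB431542 from control (y axis) for each gene, by its brightest probe set, in 7 lists (x axis), with calls by the intensity trend as orange diamonds and the list median as a bar. The medians of the 9 neuroectoderm genes (−0.01), other neural genes (−0.14) and the Notch pathway (0.02) lie near 0, and those of non-neural ectoderm (0.41) and BMP targets (0.70) lie above it.

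Markers of other cells moved in the same comparison, where 4.25% of all genes rose and 2.23% fell with the intensity trend. The summed intensity of 13 trophoblast genes was 3202 and 3367 in control, 2991 and 3348 after activin, and 5382 and 4934 after SB431542, with 6 genes higher and 1 lower by the intensity trend. For 15 extraembryonic endoderm genes it was 4225 and 4227, 4311 and 4218, and 5196 and 5118, with 2 higher, the matrix genes Sparc at 0.44 and Col4a1 at 0.44, of which 0 passed with every array shifted to 1 median or without the first SB431542 array. The median of that list was 0.03, with 8 genes above control and 7 below. For 12 fibroblast genes it was 3484 and 3441, 3511 and 3911, and 2552 and 2728, with 2 lower. The 12 neuron markers summed to 5507 and 5383, 5304 and 5058, and 4172 and 4506, and Dcx, Snap25 and Elavl4 among them had means below background in every group. The sums are linear, so bright genes weigh most. Of the trophoblast list, 10 genes lay above control after SB431542 and 3 below. Among them Tfap2c read 1303 and 1490 in control and 2556 and 2274 after SB431542. Eomes, the 1 lower, read 229 and 239, then 50 and 44, and Cdx2 219 and 186, then 207 and 170. The fibroblast gene Fn1 read 2417 and 2476, then 1846 and 1840. Median log2 differences after SB431542 were 0.54 for the trophoblast, −0.29 for the fibroblast and −0.24 for the neuron list. The trophoblast list shares Gata3 and Tfap2c with the non-neural list, and Gata3 and Hand1 with the BMP targets. The part of other cells in the values of Pax6, Hesx1 and Nes was not tested.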

How the data were processed

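RNA was hybridised to 6 single-colour Affymetrix mouse arrays, 2 a group, with groups taken from the sample titles (1 of which spells the inhibitor differently and was read as SB431542). The deposited files hold 1 linear intensity per probe set, whole numbers from 6 to 26405, and RMA is named without a version in the submitters' processing notes. For other steps nothing is given in the sources used here.

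Intensities were converted to log2 with no further normalization. Affymetrix controls, 64 probe sets, did not enter the tests, and 34945 of the other 45037 have 1 gene symbol in the platform annotation. The brightest probe set, by its mean over 6 arrays, stood for a gene in lists.

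All arrays were fitted in limma 3.58.1 (R 4.3.3), with Benjamini-Hochberg adjustment over 45037 probe sets at 0.05, by default and with trend and robust estimation. The fit was tested on simulated data. Every probe set of the 9 genes is given, and of the other neural, Notch, neuron and glia lists the genes past 0.05 by either fit, or some of the smallest p. In the remaining lists only some of the genes that passed are named, and Lefty2, Id3, Pou5f1 and Sox2 serve as reference values. Members and lists were chosen with earlier results of these data known. Some list entries were not analysed here. The deposited values hold no detection call, and the number of arrays limits the precision.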

Additional observations from a re-analysis of the deposited data

How the results depend on the processing

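For SB431542 against control, the 7 probe sets called by default became 2242 with the intensity trend, 791 with columns shifted to 1 median, 40 with repeated quantile normalization, 21 without the dimmest 40% of probe sets, 0 with the replicate block and 0 without any 1 array. For activin against control, 0 became 97 and 78 with the intensity trend and shifted columns. For activin against SB431542, 9 became 1024, 412, 49, 30 and 1 in the same order as the first, and 0 without any 1 array. Exchanging the activin numbers in the block, added after seeing the data, gave 2 and 3 for the comparisons with SB431542. The title numbers were not taken to pair arrays: no label ties a number to a shared culture or day, the descriptions number the arrays differently, and deviations of same-numbered arrays correlated at −0.14, 0.02 and −0.09. Exchanging the activin numbers turns the sign of the first and last of these. The cause of these shifts was not tested.

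With the intensity trend, the members called after SB431542 were 0 with shifted columns, 2 with the exchanged block (Pax6 and Hesx1), and 0 to 2 leaving out 1 array, 0 of them without the first SB431542 array. All other alternatives kept 1, and both comparisons with activin kept 0 under each. No called member changed sign, and signs of uncalled differences were not counted. Uncalled Pax6 1456342_at after SB431542, for example, ran from −0.04 to 0.28 leaving out 1 array. Among differences uncalled both in the main fit and in the alternative, 7 moved by more than the replicate SD. Leaving out 1 array under the intensity trend gave 947 to 2560 calls over all probe sets for SB431542 against control, 21 to 201 for activin against control and 402 to 1493 between the treatments.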

Other observations

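Over the 6 arrays, the genes whose pattern was most like that of Pax6 1419271_at were Hmgcs1, an enzyme of cholesterol synthesis (Pearson r = 0.99), Parp11, Odr4, Exog and Arhgef7 (each r = 0.99), the highest of 21596 probe sets above background searched. Hmgcs1 rose after SB431542 by 0.34 on the log2 scale with the intensity trend (adjusted p = 0.0163), and the other 4 did not pass. With 6 points that share their arrays these values are a description.

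Sox21 was also high after activin. Its brightest probe set read 152 and 145 in control, 250 and 230 after activin, and 244 and 210 after SB431542, and both treated groups lay above the controls they share. The log2 difference after activin was 0.69 (SE 0.14, limma adjusted p = 0.789, and 0.0642 with the intensity trend). A second, dimmer probe set for Sox21 was at −0.16 after SB431542.

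The 3 probe sets for Vim disagreed after SB431542. One fell, from 3492 and 3416 to 2228 and 2400, another, 1438118_x_at, rose by 0.38 with the intensity trend (adjusted p = 0.0029), from 2146 and 2361 to 3016 and 2846, and the third was at 0.02. The fall of Vim given above is therefore that of its brightest probe set alone.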
